A study of Mus musculus with 15 samples.

Results

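Eomes, Lmx1a, Lmx1b, Tbr1, Lhx2, Lhx9, Olig3, Wls and Reln are 9 genes of the rhombic lip and of the lineages that leave it for the cerebellar nuclei and the unipolar brush cells. They were taken by name from the deposited gene counts and followed through 4 ages of cerebellar granule neuron precursors and a mouse medulloblastoma. They are 9 of the 21889 genes in the gene table, and 9 of 9 passed the filter on low counts that left 15259 genes for testing. The study sequenced poly(A) RNA of 15 mouse libraries, 3 in each of 5 groups. The E15.5 precursors carry the genotype label Math1-GFP, where Math1 is the older name of Atoh1, the transcription factor that defines granule cell precursors. The labels do not say that these cells were sorted on GFP, and age and genotype label cannot be told apart at E15.5. The P1, P7 and P14 precursors are wild type (WT). The medulloblastoma cells (MB) come from mice labelled Ptch1 heterozygous, that is, with 1 altered copy of the receptor that restrains Sonic hedgehog signalling, and no age is given for them. All 5 groups were purified on Percoll, a density medium, which enriches small dense cells and does not select on a marker. The labels do not say whether the libraries of a group came from separate animals, so the p-values below measure only the spread between these samples.

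The rhombic lip is the dorsal edge of the hindbrain neuroepithelium, next to the roof plate that forms the choroid plexus. It gives rise in order to the glutamatergic neurons of the cerebellar nuclei, to granule neuron precursors, and to unipolar brush cells, which are excitatory interneurons of the granular layer. Early nuclear neurons collect in a nuclear transitory zone, where the LIM homeodomain factors Lhx2 and Lhx9 and the T-box factors Eomes and Tbr1 are used as markers, while granule neuron precursors move over the surface, express Atoh1 and divide under Sonic hedgehog. Olig3 is a bHLH factor of rhombic lip progenitors, Lmx1a and Lmx1b are LIM homeodomain factors of the roof plate and rhombic lip, Wls escorts Wnt proteins to the cell surface, and Reln encodes Reelin, a secreted glycoprotein that guides the placement of Purkinje cells and cortical neurons.

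Promoter sequences are shown for pairs of members that moved together in the data, Lmx1a with Lmx1b and Lhx2 with Olig3. Each run is the 250 bases before the annotated start, 5′ to 3′ on the gene's strand, from RefSeq on GRCm38.p6, with CpG dinucleotides in capitals. For Lhx2, which has 2 starts in that table, the upstream start is shown.
Lmx1a, chr1:167689308-167689557, plus strand: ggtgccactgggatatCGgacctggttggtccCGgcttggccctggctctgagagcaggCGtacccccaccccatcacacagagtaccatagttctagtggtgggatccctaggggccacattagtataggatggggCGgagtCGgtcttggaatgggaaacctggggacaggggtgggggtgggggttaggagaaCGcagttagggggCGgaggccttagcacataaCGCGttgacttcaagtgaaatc
Lmx1b, chr2:33641099-33641348, minus strand: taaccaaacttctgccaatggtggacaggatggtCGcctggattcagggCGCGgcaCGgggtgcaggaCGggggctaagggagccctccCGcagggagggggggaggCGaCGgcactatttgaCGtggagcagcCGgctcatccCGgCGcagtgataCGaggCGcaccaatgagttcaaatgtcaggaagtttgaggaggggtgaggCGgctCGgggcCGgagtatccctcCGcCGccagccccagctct
Lhx2, chr2:38339031-38339280, plus strand: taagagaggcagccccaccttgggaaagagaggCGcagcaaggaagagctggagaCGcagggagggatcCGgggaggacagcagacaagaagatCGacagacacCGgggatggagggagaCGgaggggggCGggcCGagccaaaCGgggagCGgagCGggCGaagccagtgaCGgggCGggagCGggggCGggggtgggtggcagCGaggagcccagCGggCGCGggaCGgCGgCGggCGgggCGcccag
Olig3, chr10:19356289-19356538, plus strand: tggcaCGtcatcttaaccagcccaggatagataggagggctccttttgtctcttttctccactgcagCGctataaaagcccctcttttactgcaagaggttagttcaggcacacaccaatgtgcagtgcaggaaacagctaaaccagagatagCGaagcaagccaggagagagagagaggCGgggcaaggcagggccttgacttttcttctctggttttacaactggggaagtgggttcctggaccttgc

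The promoters of the paired genes differed in CpG content. The Lmx1a promoter held 9 CpG and the Lmx1b promoter 19, and the Lhx2 promoter held 25 against 4 for Olig3. Across the 10 promoters of the 9 members the CpG count ran from 4 to 37, the highest in Reln, with a median of 8.5 and a median GC content of 58.6%. All 32851 promoters of the table had a median of 6 CpG, a middle range from 2 to 16, and a median GC content of 52.4%. Short motifs were searched on both strands as a description. The homeodomain core TAATTA, found in 4.84% of all promoters, occurred in 1 of the 10, that of Tbr1, at 33 and 18 bases before the start (capitals).
Tbr1, chr2:61804203-61804452, plus strand: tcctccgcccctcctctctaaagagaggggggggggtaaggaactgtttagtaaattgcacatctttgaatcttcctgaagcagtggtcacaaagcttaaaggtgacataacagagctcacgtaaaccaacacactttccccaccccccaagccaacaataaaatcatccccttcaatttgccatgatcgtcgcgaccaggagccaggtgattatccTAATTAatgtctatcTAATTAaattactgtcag
The E-boxes CAGCTG and CAGATG, the T-box motif GGTGTGA and the Gli core GGGTGGTC, held by 13%, 14.4%, 3.33% and 0.703% of all promoters, were found in none of the 10 windows.

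In the mm9 coordinates of the deposited transcript table, Olig3 is a gene of 1 exon at chromosome 10, 19076366 to 19078412 (ENSMUSG00000045591). Reln, the longest, spans chromosome 5, 21390272 to 21850520 on the minus strand with 65 exons (ENSMUSG00000042453). Lmx1a lies at chromosome 1, 169619689 to 169778872 (8 exons), Lmx1b at chromosome 2, 33416485 to 33496031 (8 exons, minus strand), and Wls at chromosome 3, 159502701 to 159598797 (12 exons). Lhx2 lies at chromosome 2, 38206279 to 38225253 (5 exons), Lhx9 at chromosome 1, 140721763 to 140739034 (5 exons, minus strand), Tbr1 at chromosome 2, 61642510 to 61652171 (6 exons), and Eomes at chromosome 9, 118387462 to 118395250 (6 exons). Antisense genes are annotated over Eomes (Gm33460), Lhx2 (Gm27197 and Gm13584) and Reln (Gm10475 and Gm16110). Other entries overlap Lmx1b (Gm38011, opposite strand) and Wls (Gm43307, same strand, and Gm23941, opposite strand). Reln also overlaps Gm19666 on its own strand and processed pseudogenes on both strands. The strand setting of the counting is not given in the sources used here, so reads of these partners cannot be told apart from those of the members.

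The libraries held 12597472 (E15.5 replicate 2) to 43443132 (E15.5 replicate 3) counts in genes. The deposited gene tables were made in 2 ways, as seen in the gene Tsnax, whose reads are nearly absent in 6 libraries (E15.5 replicates 1 and 3, P7 replicates 1 to 3 and MB replicate 1). All P7 libraries are in that set and all P1 and P14 libraries are outside it, so set and age cannot be told apart there. Where this could be checked, the members were little touched: in libraries with at least 20 counts of a member, its gene count was 95.4% to 101.1% of the count over its longest transcript. Too few counts for this check were held by Lmx1b at P7, Lmx1a in P7 replicate 1 and Lhx9 at P14. The same holds for Lmx1a, Lmx1b and Lhx9 in MB, so the check says nothing on these. Genes of the labelled granule lineage were present in all groups: Atoh1 stood at 129 ± 8.53 CPM (mean ± SD, n = 3) in E15.5 precursors and fell to 47.7 ± 21.0 by P1. It was 30.6 ± 7.85 at P7 and 11.9 ± 1.11 at P14, and MB had the highest level, 280 ± 43.0. Pax6 was at 191 ± 92.0 in MB and 429 ± 4.71 to 624 ± 204 in the other groups. Mfap4, another gene of that list, was at 726 ± 43.5 at P7 and 25.0 ± 11.7 in MB. CPM are gene counts scaled to a common library size with TMM factors, and all levels are given in them. Postnatal libraries also held markers of other cells that were low at E15.5: the summed CPM of 9 astroglial genes was 333 to 493 at E15.5 and 2522 to 5948 from P1 to P14, and that of 8 pericyte, fibroblast and meningeal genes was 23.3 to 37.7 and then 387 to 1057. In bulk RNA, fewer cells of a type and less RNA per cell cannot be told apart.

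Of the 9 members, 8 differed among the 4 ages of precursors by edgeR's quasi-likelihood test at an adjusted p under 0.05. The background was 55.7% of all genes tested. Reln was the member that did not pass (adjusted p = 0.112), and the smallest adjusted p was that of Lhx9 at 2.60e-07. The highest level among the 4 ages was at E15.5 for 8 members, while Wls was highest at P1. From E15.5 to P1, 6 members fell and 1 rose, so that 7 of 9 were called against 46.3% of all genes, of which 20.9% were lower and 25.4% higher. By overlap of libraries, 6 members lay below and 1 above, against 27.3% and 30.5% of all genes. Eomes was called with overlapping libraries, and Lmx1b lay apart without a call. The median log2 change of the members was -1.94, against 0.03 over all genes. Markers of GABAergic interneurons also fell at this step, with 6 of 7 genes called lower, a median of -1.32, and sums of 721 to 850 CPM at E15.5 and 380 to 444 at P1. Their part in the members' falls was not tested.

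**Figure D1:**
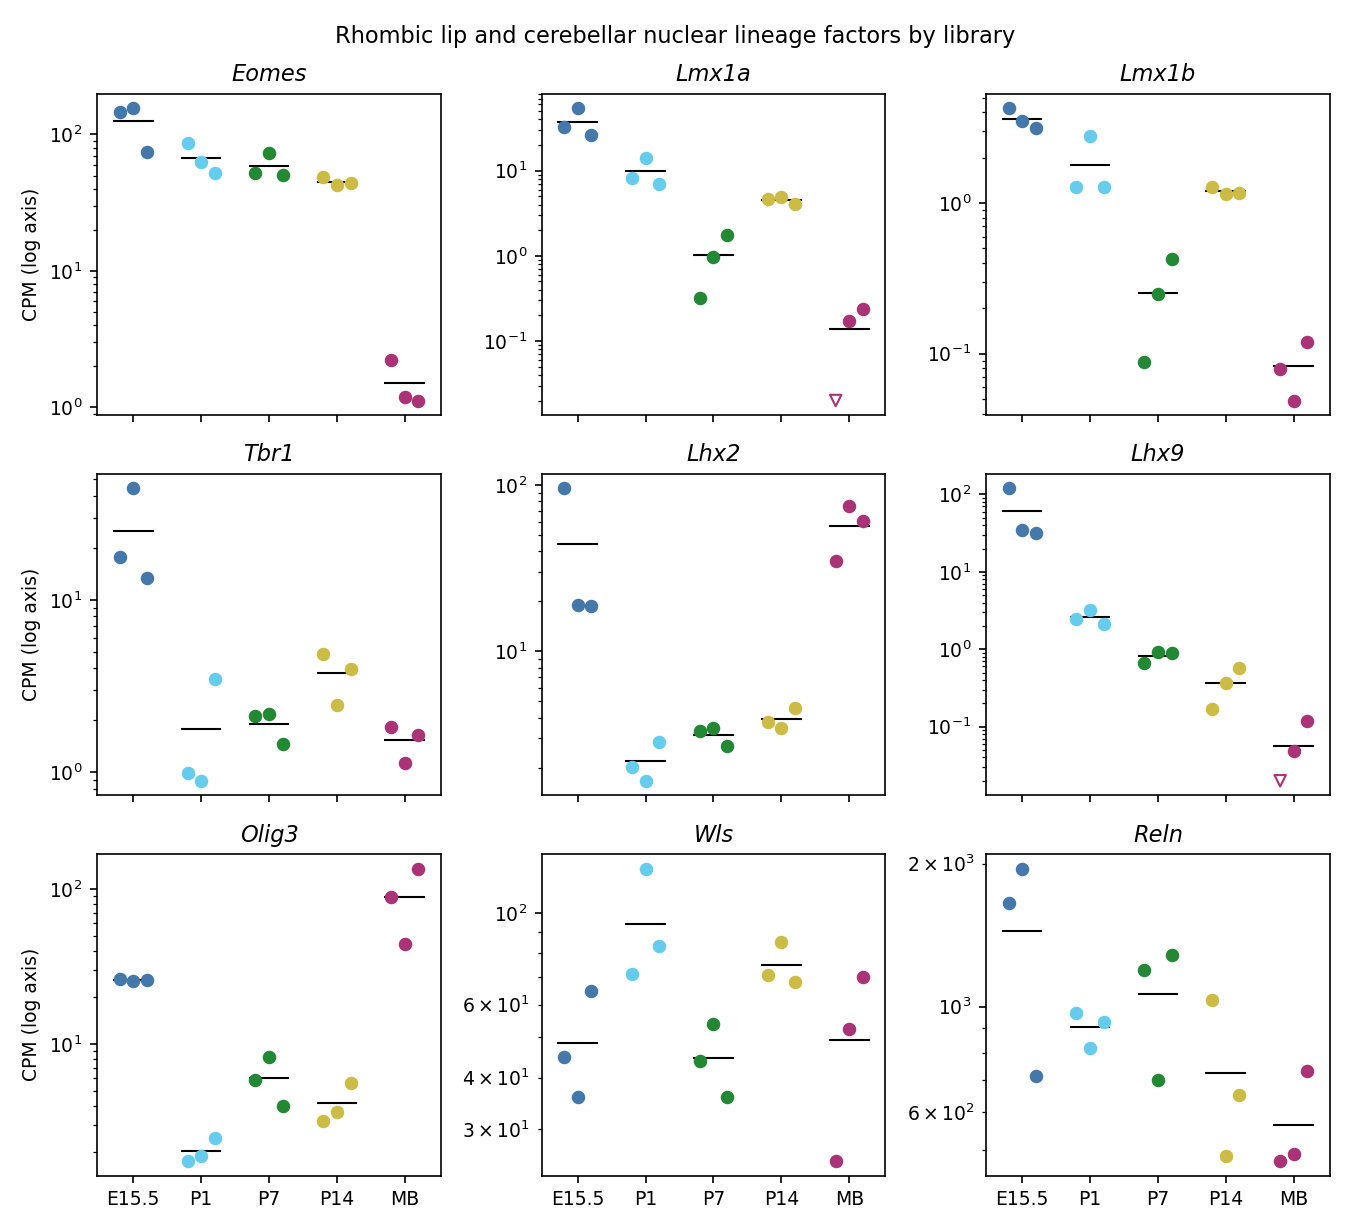
Level of each of the 9 genes in every library, in CPM on a log axis, with 1 panel per gene and 3 points per group; open triangles at the bottom mark libraries with 0 counts, and short bars mark group means. Lhx9 steps down from E15.5 to MB without overlap between neighbouring groups, Lhx2 and Olig3 are high at E15.5 and in MB, and Wls and Reln stay within a narrow range.

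The LIM factors of the nuclear lineage, Lhx2 and Lhx9, both fell between E15.5 and P1. Lhx9 stood at 120, 34.3 and 31.6 CPM in E15.5 replicates 1 to 3, at 2.45, 3.22 and 2.15 at P1, at 0.672, 0.911 and 0.886 at P7, and at 0.169, 0.362 and 0.568 at P14. Every age lay below the one before it without overlap. The step from E15.5 to P1 was -4.57 on the log2 scale (SE 0.54, adjusted p = 1.12e-05). It was -3.66 without E15.5 replicate 1, which held more than any other library, and stayed called (adjusted p = 3.08e-05). The step from P1 to P7 was -1.66 (SE 0.52, adjusted p = 0.0906) and that from P7 to P14 was -1.16 (SE 0.59, adjusted p = 0.214). Over both steps, P14 was lower than P1 by -2.81 (SE 0.57, adjusted p = 0.0113). That call was lost without P1 replicate 2 (adjusted p = 0.0553), P14 replicate 1 (0.0567) or P14 replicate 2 (0.0698). In counts, Lhx9 had 4364 reads over the E15.5 libraries and 34 over the P14 libraries, a ratio of scaled counts of 163 (95% interval 117 to 236; this and the intervals below cover counting error only).

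Lhx2, which marks early nuclear neurons and is also known as a forebrain and retinal regulator, stood at 95.6, 19.1 and 18.9 CPM at E15.5, at 2.02, 1.67 and 2.86 at P1, at 3.30, 3.45 and 2.70 at P7, and at 3.74, 3.47 and 4.55 at P14. The E15.5 libraries lay far above all postnatal ones, and replicate 1 was the highest of them, as for Lhx9. The step to P1 was -4.35 (SE 0.57, adjusted p = 3.13e-05), or -3.12 without E15.5 replicate 1 (adjusted p = 1.42e-05). Between the postnatal ages no contrast of Lhx2 passed, with P14 above P1 by 0.84 (SE 0.53, adjusted p = 0.324) although these libraries did not overlap.

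Tbr1, the T-box factor of medial nuclear neurons, was low after birth in all libraries. It stood at 17.8, 44.3 and 13.4 CPM at E15.5, at 0.987, 0.892 and 3.47 at P1, at 2.10, 2.18 and 1.46 at P7, and at 4.86, 2.44 and 3.94 at P14. E15.5 was highest without overlap, with replicate 2 above the others. The fall to P1 was -3.80 (SE 0.56, adjusted p = 8.06e-05). It was -3.12 without E15.5 replicate 2 and -4.73 without P1 replicate 3, and was called in both. P14 lay above P7 without overlap by 0.96 on the log2 scale, with an adjusted p of 0.240. The forebrain marker list of 9 genes summed to 297, 315 and 189 CPM in the E15.5 libraries and to 145 to 257 at P1, with 1 of 5 tested genes called higher and 1 lower at P1. At P14, where Tbr1 was low, the list summed to 362 to 390 CPM with 1 to 2 of its genes at 0 counts. Its sum can rest on few genes and is not by itself a measure of forebrain tissue. The part of any such tissue in the Tbr1 level was not tested.

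Olig3, the progenitor factor, was the member with the tightest E15.5 values. Its level was 26.3, 25.6 and 25.8 CPM at E15.5, 1.76, 1.90 and 2.49 at P1, 5.90, 8.28 and 3.97 at P7, and 3.20, 3.65 and 5.58 at P14. The P1 libraries were lowest, without overlap with any other age. The fall from E15.5 to P1 was -3.66 (SE 0.39, adjusted p = 5.34e-06), and P7 lay above P1 by 1.56 (SE 0.37, adjusted p = 0.0370). That rise was not stable. The call was lost when the 2 ages were fitted alone (adjusted p = 0.0596) and when any of 8 single libraries was left out: E15.5 replicate 1, P1 replicate 1 or 2, P7 replicate 1 or 2, or any P14 library, with adjusted p from 0.0507 to 0.186 and log2 differences from 1.27 to 1.60.

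The roof plate factors Lmx1a and Lmx1b followed each other closely, with a Pearson correlation of log2 CPM of 0.974 over the 15 libraries. Depth and cell make-up differ between libraries and act on both genes at once. Lmx1a stood at 32.7, 54.3 and 26.0 CPM at E15.5, at 8.24, 14.2 and 6.97 at P1, at 0.321, 0.966 and 1.77 at P7, and at 4.65, 4.91 and 4.11 at P14. Lmx1b stood at 4.27, 3.51 and 3.15 CPM at E15.5, at 1.29, 2.79 and 1.28 at P1, at 0.0877, 0.248 and 0.424 at P7, and at 1.28, 1.15 and 1.17 at P14. Both were highest at E15.5 and lowest of the ages at P7, and in both the P7 libraries lay apart from P1 and from P14. The Lmx1a fall from E15.5 to P1 was -1.94 (SE 0.50, adjusted p = 0.00531). The Lmx1b difference was -1.02 (SE 0.41, adjusted p = 0.0541), short of the threshold although its libraries did not overlap.

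From P1 to P7 the members called lower were these same genes, Lmx1a by -3.29 (SE 0.55, adjusted p = 0.0115) and Lmx1b by -2.84 (SE 0.48, adjusted p = 0.0120). With Olig3 above, that made 1 member higher and 2 lower, against 1.4% and 1.74% of all genes (3.15% in either direction); 1 and 4 members lay apart without overlap, against 14.1% and 14.7%. The median of the members was -0.19 on the log2 scale, and -0.01 over all genes. From P7 to P14 the 2 members called were again Lmx1a, higher by 2.18 (SE 0.54, adjusted p = 0.0225), and Lmx1b, higher by 2.27 (SE 0.48, adjusted p = 0.0130). No member was called lower at that step, and the background was 10.3%, with 5.81% higher and 4.51% lower. Without overlap, 5 members lay above and 2 below, against 24.9% and 21.4%. The steps share the P7 libraries, so a low P7 level gives both. Between P1 and P14, Lhx9 was the 1 member called, lower as given above, and 0 were called higher, with a background of 8.94%, 5.31% lower and 3.63% higher. There, 2 members lay above and 3 below without overlap (26.5% and 24.9% of all genes).

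The calls around P7 for these genes depended on single libraries. The Lmx1a fall to P7 was lost without P1 replicate 2 (-2.92, adjusted p = 0.0709) or P7 replicate 2 (-3.26, adjusted p = 0.0575), and was -3.91 without P7 replicate 3. The Lmx1b fall was lost without P1 replicate 2 (-2.36, adjusted p = 0.0804), without P7 replicate 2 (-2.85, adjusted p = 0.0575), or with the 2 ages fitted alone (adjusted p = 0.0574). The Lmx1a rise to P14 was lost without P7 replicate 1 or 2 or any 1 of the P14 libraries (1.72 to 2.25, adjusted p from 0.0561 to 0.100), and was 2.81 without P7 replicate 3. The Lmx1b rise was lost without P7 replicate 2 (2.27, adjusted p = 0.0678) or P14 replicate 2 (2.29, adjusted p = 0.0573).

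Choroid plexus, whose epithelium is known to express Lmx1a, varied beside these genes after birth. Ttr, the transthyretin gene and its most abundant marker, stood at 285, 10066 and 3755 CPM in the P1 libraries, at 8.48, 454 and 1910 at P7 and at 5565, 8279 and 4970 at P14. Within P1, replicate 2 was highest in Ttr, Lmx1a and Lmx1b, and within P7 all 3 genes were lowest in replicate 1 and highest in replicate 3. Folr1 was 3.30, 80.1 and 29.2 CPM at P1 and 0.497, 4.14 and 18.0 at P7, and Kl was 0.815, 24.5 and 48.4 and then 1.40, 3.95 and 14.9. The summed CPM of the 9 choroid plexus genes was 307 to 10633 at P1, 15.4 to 2025 at P7 and 5252 to 8692 at P14. Of those 9, 0 were called between P1 and P7, where their median log2 change was -2.42. From P7 to P14, 1 was called higher, with a median of 2.78. At E15.5, where Lmx1a and Lmx1b were highest, the list summed to 29.0 to 312, with Ttr at 27.9, 276 and 24.3, Folr1 at 0.480, 2.67 and 0.473 and Kl at 0.131, 0.0835 and 0.446. The libraries did not follow Ttr in every case, as P1 replicate 1 held 8.24 CPM of Lmx1a at 285 of Ttr and P7 replicate 3 held 1.77 at 1910. The part of choroid plexus in the postnatal Lmx1a and Lmx1b levels was not tested.

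**Figure D2:**
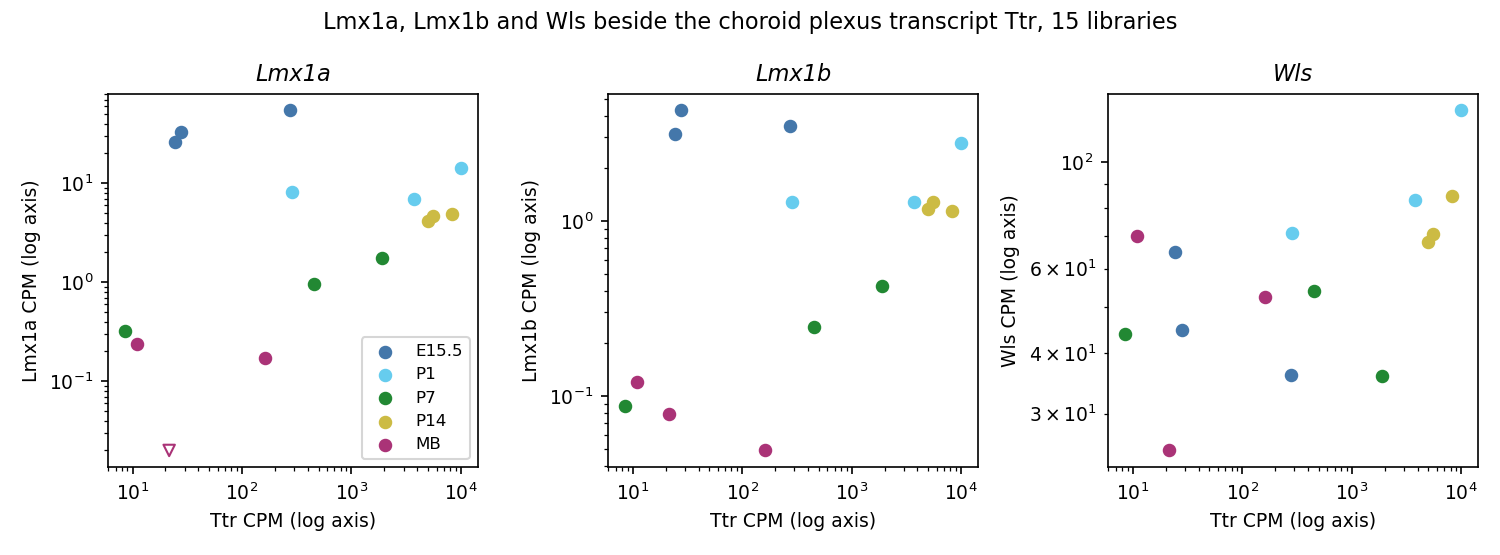
Lmx1a, Lmx1b and Wls on the vertical axes against Ttr on the horizontal axis, all in CPM on log axes, with 1 point per library coloured by group and an open triangle where Lmx1a has 0 counts. Within P7 the library highest in Ttr is also highest in Lmx1a and Lmx1b, and the E15.5 libraries lie above all others in both genes at Ttr of 24.3 to 276.

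Eomes, the T-box factor of the nuclear transitory zone and of unipolar brush cells, declined only slowly across the ages. Its level was 146, 156 and 74.5 CPM at E15.5, 86.0, 62.3 and 52.5 at P1, 52.3, 73.7 and 50.6 at P7, and 48.6, 42.6 and 43.8 at P14. E15.5 and P1 overlapped through E15.5 replicate 3, and P7 and P14 did not overlap. The fall to P1 was -0.90 (SE 0.29, adjusted p = 0.0193), and was lost without E15.5 replicate 1 (-0.78, adjusted p = 0.0691) or 2 (-0.72, adjusted p = 0.0765), or P1 replicate 2 (-0.86, adjusted p = 0.0654) or 3 (-0.76, adjusted p = 0.0776). The postnatal contrasts did not pass, at -0.19 for P7 against P1 (SE 0.29, adjusted p = 0.779) and -0.39 for P14 against P7 (SE 0.29, adjusted p = 0.407).

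Reln was the most abundant member per length in every group, at 123 CPM per kb of exon at E15.5 and 48.2 in MB. Its level in CPM was 1656, 1953 and 716 at E15.5, 969, 819 and 930 at P1, 1196, 701 and 1285 at P7, and 1032, 485 and 652 at P14. All neighbouring groups in the order of means overlapped, and no contrast tested between ages passed. P7 and P14 were not tested against E15.5, where the mean was 1441 CPM against 723 at P14. The largest contrast tested was P1 against E15.5 at -0.67 (SE 0.36, adjusted p = 0.137). It became -1.04 with an adjusted p of 0.0184 without E15.5 replicate 3, the low library.

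Wls, the Wnt carrier, was the member called higher at P1 than at E15.5. It stood at 44.8, 36.0 and 64.8 CPM at E15.5, at 71.2, 128 and 83.3 at P1, at 43.8, 53.8 and 35.8 at P7, and at 70.8, 85.1 and 68.1 at P14. P1 lay above E15.5 without overlap by 0.95 (SE 0.33, adjusted p = 0.0271), a call lost without E15.5 replicate 1 (0.89, adjusted p = 0.0788) or 2 (0.78, adjusted p = 0.0987) or P1 replicate 2 (0.67, adjusted p = 0.143). P7 was below P1 by -1.08 (SE 0.33, adjusted p = 0.0827). Wls was highest of all libraries in P1 replicate 2, where Ttr was also highest, and the choroid plexus list had 9 of 9 genes called higher at P1 than at E15.5, as had the astroglial list. Their part in the Wls level was not tested.

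**Figure D3:**
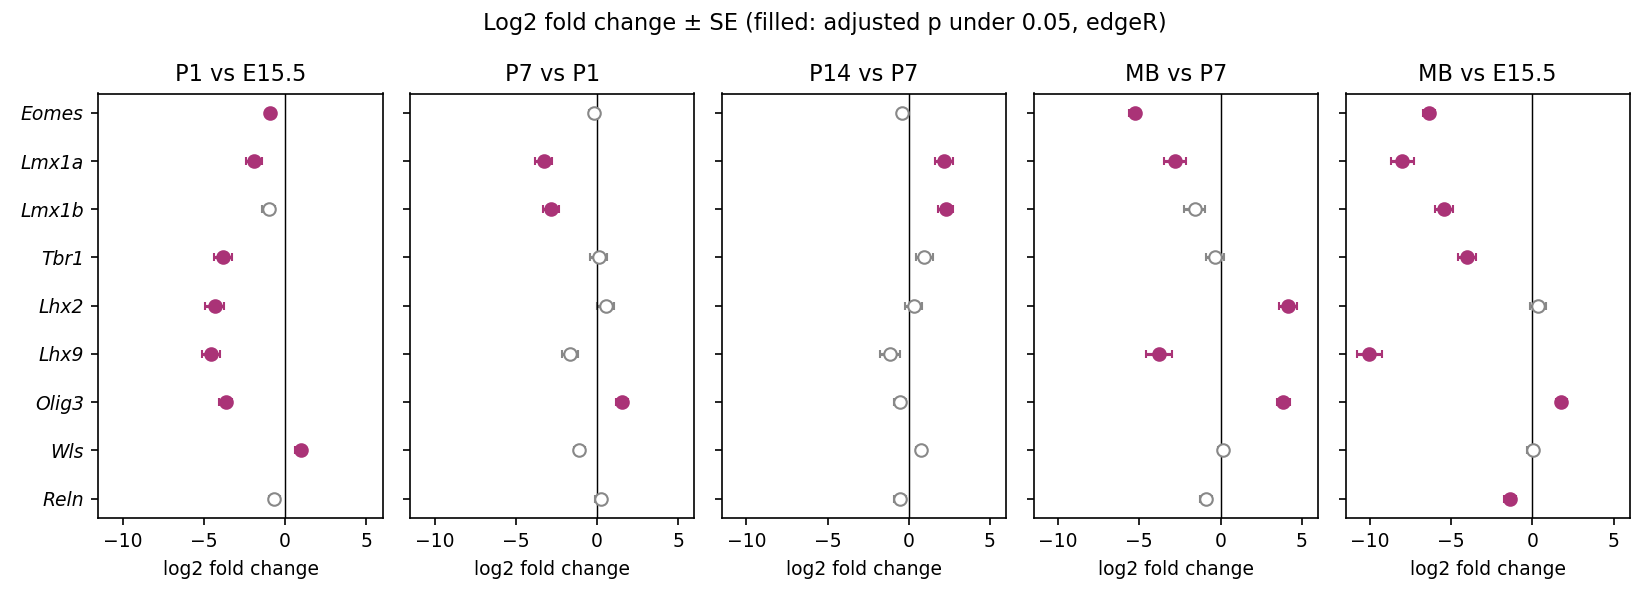
Log2 fold change of the 9 genes in each comparison, with points at the edgeR estimate, bars of 1 standard error, and filled points where the adjusted p is under 0.05. In MB against P7 Lhx2 and Olig3 lie near +4 while Eomes, Lhx9 and Lmx1a lie between -5.29 and -2.79.

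MB was compared with P7 precursors, the age of strong Sonic hedgehog driven growth, and with E15.5 precursors. Against P7, Lhx2 and Olig3 were higher and Eomes, Lmx1a and Lhx9 were lower. The 2 higher and 3 lower members stand against 13.7% and 20.7% of all genes, or 34.5% in either direction, and the same numbers lay apart without overlap, against 17.7% and 23.9%. Against E15.5, 1 member was higher and 6 were lower, against 26% and 24.2% and 50.1% in either direction. Without overlap, 1 lay above and 5 below, against 26.6% and 26%. The member medians were -0.91 and -4.04 on the log2 scale, with 0.02 and 0.03 over all genes. The comparisons share the MB libraries.

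Olig3 in MB stood at 88.4, 44.2 and 135 CPM, above every other library of the series. The mean was 89.2 ± 45.5 (SD, n = 3), against 6.05 ± 2.16 at P7 and 25.9 ± 0.342 at E15.5. The difference was 3.88 from P7 (SE 0.39, adjusted p = 2.27e-06) and 1.78 from E15.5 (SE 0.35, adjusted p = 6.36e-04). Per kb of exon Olig3 was the second of the 9 genes in MB, at 43.6 CPM per kb, after Reln.

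Lhx2 in MB was 35.0, 74.7 and 60.7 CPM, a mean of 56.8 ± 20.2 (SD, n = 3) against 3.15 ± 0.399 at P7. All 3 libraries lay above all postnatal ones, and they overlapped with E15.5. The difference from P7 was 4.17 (SE 0.56, adjusted p = 3.93e-05) and that from E15.5 was 0.35 (SE 0.49, adjusted p = 0.573). That comparison with E15.5 rested on E15.5 replicate 1: without it MB was higher by 1.58 (adjusted p = 0.00126), and without replicate 2 or 3 the value was -0.011 or -0.014. The forebrain list summed to 237 to 427 CPM at P7 and 82.1 to 103 in MB, with 2 of 5 tested genes called higher and 2 lower than at P7, and its part in the Lhx2 level was not tested.

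Lhx9, the other LIM factor high at E15.5, did not return in MB. It had 0, 2 and 3 counts in the 3 libraries, or 0, 0.0489 and 0.120 CPM. All lay below the lowest P14 library. The ratio of scaled counts was 14.9 for P7 over MB (95% interval 6.14 to 47.3) and 1089.9 for E15.5 over MB (467 to 3358). The fitted difference from E15.5 moved from -10.03 to -9.12 on the log2 scale without E15.5 replicate 1, and to -8.71 among the 9 libraries in which Tsnax is counted, where replicate 2 is the only E15.5 library. Both contrasts were called, with adjusted p of 0.00165 and 7.88e-08. Lhx2 thus had its highest group mean in MB and Lhx9 its lowest, although both were high at E15.5.

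Eomes in MB was 2.22, 1.20 and 1.12 CPM, where no other library of the series was below 42.6. The mean of 1.51 ± 0.615 (SD, n = 3) lay below P7 by -5.29 (SE 0.36, adjusted p = 6.77e-08) and below E15.5 by -6.38 (SE 0.37, adjusted p = 6.66e-09). Counts of Eomes were 5773 at P7 and 133 in MB, a scaled ratio of 41.0 (95% interval 34.5 to 49.1). Lmx1a had 13 counts in all 3 MB libraries together, at 0, 0.171 and 0.240 CPM, against 92 at P7 and 2391 at E15.5. The scaled ratios were 6.69 (3.72 to 13.04) and 229.7 (134 to 432), and both contrasts were called (adjusted p = 0.00561 and 3.47e-07). Without P7 replicate 3 the Lmx1a difference from P7 was -2.17 instead of -2.79 on the log2 scale. Lmx1b had 7 counts in MB, a ratio of 46.4 for E15.5 over MB (22.2 to 117) that was called (adjusted p = 1.52e-06), and of 3.11 for P7 over MB (1.29 to 8.57) that was not (adjusted p = 0.0619). For both LIM genes the P7 level is the lowest of the precursors: the ratio for P14 over MB was 32.0 for Lmx1a (18.5 to 60.7) and 15.6 for Lmx1b (7.31 to 39.6). Choroid plexus genes summed to 37.7 to 196 CPM in MB, and their part was not tested.

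Markers of other neurons of the cerebellum also moved in this comparison. The 8 Purkinje cell genes summed to 395 to 1006 CPM at P7 and 60.6 to 99.0 in MB, with 7 of 8 called lower. The 7 GABAergic interneuron genes summed to 340 to 474 at P7 and 91.7 to 151 in MB, with 5 of 7 lower. Pax2, which marks GABAergic interneuron precursors, was 39.5, 41.4 and 109 CPM at P7 and 0, 0.0244 and 0 in MB, and Calb1, a Purkinje cell gene, was 273, 77.1 and 115 and then 0.159, 0.244 and 0.160. The 8 pericyte, fibroblast and meningeal genes had 8 of 8 lower. Eomes thus fell beside markers of several cell types, and the part of each was not tested.

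Tbr1 was 1.82, 1.12 and 1.64 CPM in MB, below E15.5 by -4.04 (SE 0.56, adjusted p = 2.98e-05), or by -3.36 without E15.5 replicate 2. It overlapped with P7 (-0.34, SE 0.53, adjusted p = 0.666), with MB replicate 2 below every P7 library. Reln was 473, 489 and 731 CPM in MB. It was called lower than at E15.5 (-1.35, SE 0.36, adjusted p = 0.00573), although the highest MB library passed the lowest E15.5 library, and it lay below P7 by -0.91 without a call (SE 0.36, adjusted p = 0.0611). Wls was 25.1, 52.3 and 70.1 CPM in MB, overlapping with both, at 0.14 from P7 (SE 0.32, adjusted p = 0.775) and 0.02 from E15.5 (SE 0.33, adjusted p = 0.971). The sign of those small Wls differences turned with the library left out.

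**Figure D4:**
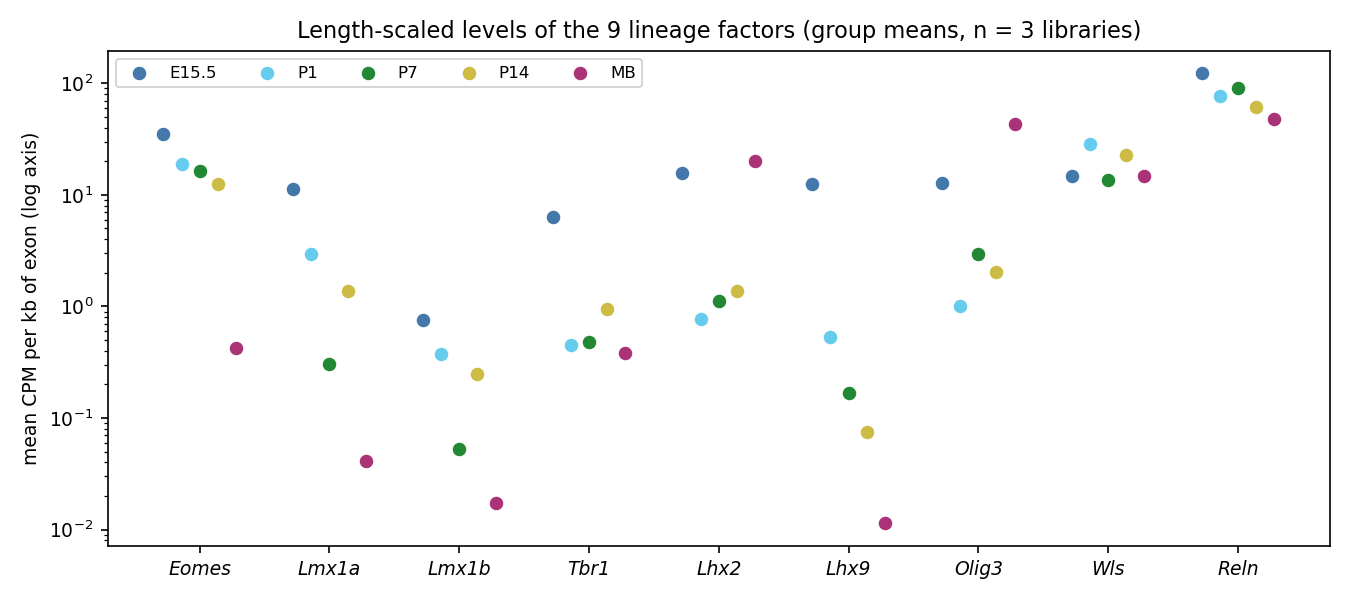
Group means of the 9 genes in CPM per kb of exon, on a log axis, by group. Reln is at the top in every group, Eomes drops from 16.5 at P7 to 0.425 in MB, and Olig3 rises from 2.96 to 43.6.

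The genes most like each member over the 15 libraries were taken by Pearson correlation of log2 CPM among 13452 genes, as a description. For Eomes these were Mpped1 (0.991), the glycine transporter gene Slc6a5 (0.989) and the netrin receptor gene Unc5c (0.989). For Lhx9 they were Lypd1 (0.973), the somatostatin gene Sst (0.967) and Stbd1 (0.967). Lhx2 was closest to Th, the tyrosine hydroxylase gene (0.960), which was also among the 3 closest to Olig3 (0.922), with Sertad4 (0.938) and Zfp212 (0.923). Lhx2 and Olig3 had a correlation of 0.917 with each other. Th was 6.10 to 12.3 CPM at E15.5, at most 0.401 from P1 to P14, and 12.1 to 20.6 in MB. Th is also in the list of 9 midbrain dopaminergic neuron genes, whose sum was highest at P14, where Th was low. The list summed to 25.3 to 29.1 CPM at E15.5, 22.1 to 91.1 at P1, 55.1 to 66.5 at P7, 130 to 136 at P14 and 50.8 to 75.8 in MB. Of its 6 genes tested, 2 were called higher and 1 lower in MB than at P7, and 4 higher and 0 lower than at E15.5. The part of such neurons in these levels was not tested. Tbr1 was closest to Rab3c (0.954), Wls to Oma1 (0.872) and Reln to Asxl3 (0.926).

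Genes of these and neighbouring lineages outside the 9 members were taken as lists. The nuclear neuron list also holds the glycine transporter gene Slc6a5, and the rhombic lip list also holds Ptf1a, the GABAergic progenitor factor. Their counts thus do not describe 1 lineage. The shares over all genes were 25.4% higher and 20.9% lower for P1 against E15.5. They were 13.7% and 20.7% for MB against P7, and 26% and 24.2% for MB against E15.5. Of 9 cerebellar nuclear neuron genes tested, 4 fell and 0 rose from E15.5 to P1, with a median of -0.46. Meis2, a homeobox gene of nuclear neurons, went from 98.0 ± 43.8 to 3.72 ± 1.53 CPM (log2 change -4.72, SE 0.59), and Robo3, a midline crossing receptor, went from 274 ± 76.8 to 9.62 ± 6.10 (-4.83, SE 0.81). In MB against P7, 2 of the 9 were higher and 4 lower, with a median of -0.22. Slc6a5 fell from 18.9 ± 2.38 to 0.0826 ± 0.0351 CPM, while Cbln4, a synaptic organiser gene, rose from 0.636 ± 0.280 to 59.8 ± 34.8 (6.52, SE 0.47; 5.93 without MB replicate 1) and Neurod6, a bHLH gene, from 65.0 ± 22.6 to 140 ± 16.4 (1.11, SE 0.23). Among 10 unipolar brush cell genes, 1 was higher and 5 were lower in MB than at P7, with a median of -0.81. Dgkb, a diacylglycerol kinase gene, rose from 3.01 ± 0.505 to 18.1 ± 10.2 (2.58, SE 0.38).

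Of 13 genes listed as other rhombic lip and roof plate genes, 7 rose and 3 fell from E15.5 to P1 (median 1.41). Ptf1a was among those that rose, and 25.4% of all genes rose and 20.9% fell. In MB against P7, 1 rose and 4 fell (median -1.70). The fall in MB was in Msx2 and Msx1, roof plate and meningeal homeobox genes, and in Ptf1a, the GABAergic progenitor factor, among others. Msx2 went from 18.9 ± 3.44 to 0.0244 ± 0.0423 CPM and Ptf1a from 5.53 ± 1.43 to 0.00814 ± 0.0141. Against E15.5, 2 of the 13 were higher in MB and 8 lower (median -3.30), where 26% of all genes were higher and 24.2% lower. Barhl2, a homeobox gene of the rhombic lip lineage, was 1 of the 2 higher, at 93.4 ± 22.4 against 16.6 ± 8.21 CPM (2.50, SE 0.32). Its level at P7 was 103 ± 24.0 CPM. Of 10 granule lineage genes, 2 were higher and 4 lower in MB than at P7 (median -0.79). The higher ones were Atoh1 (3.19, SE 0.30) and Barhl1 (1.30, SE 0.25), and Neurod1 fell from 1461 ± 370 to 399 ± 151 CPM.

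Wnt ligands, the cargo of Wls, were tested beside it, in a list that also holds the acylation gene Porcn and Notum, which is not a ligand. Of 16 genes, 12 were lower, Notum among them, and 1 was higher in MB than at P7, with a median of -2.57. Wnt5a went from 34.2 ± 6.39 to 3.96 ± 1.25 CPM (-3.11, SE 0.26), Wnt7b from 13.5 ± 2.52 to 3.30 ± 0.858 (-2.02, SE 0.36), and Wnt4 rose from 3.68 ± 0.208 to 36.0 ± 24.2 (3.29, SE 0.44; 2.63 without MB replicate 3). Against E15.5, 10 of 16 were lower and 2 higher. From E15.5 to P1, 6 of the 16 rose and 4 fell.

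Downstream of Reln, the Reelin receptors and adaptor were tested among 16 pathway genes. In MB against P7, 1 rose and 3 fell with a median of -0.01, where 13.7% of all genes rose and 20.7% fell. Lrp8, 1 of the Reelin receptors, fell from 177 ± 34.6 to 34.9 ± 8.65 CPM (-2.34, SE 0.28), and Dab1, the intracellular adaptor, from 42.5 ± 1.64 to 12.4 ± 2.33 (-1.78, SE 0.18). Fyn was the third that fell (-0.55, SE 0.15), and Akt1 rose (1.01, SE 0.20). Vldlr, another Reelin receptor, was not called, at 84.1 ± 7.45 CPM at P7 and 87.8 ± 43.6 in MB. From E15.5 to P1, 2 of the 16 rose and 4 fell, with Dab1 falling from 143 ± 22.2 to 45.9 ± 5.79 CPM (-1.64, SE 0.18). Of 15 LIM cofactors and other LIM homeobox genes, 5 rose and 5 fell in MB against P7 with a median of 0.28. Lhx5, a LIM homeobox gene of Purkinje and interneuron precursors, fell from 56.0 ± 25.0 to 0.0969 ± 0.0673 CPM, and Lmo1, a LIM-only cofactor, rose from 2.19 ± 0.0879 to 47.8 ± 6.50 (4.45, SE 0.29). Of 8 other T-box genes tested, 2 rose and 2 fell. Tbx18, known from mural and meningeal cells, fell from 8.92 ± 3.999 to 0.237 ± 0.260 CPM. In these lists, values are means ± SD of 3 libraries and SE is that of the log2 difference, and all changes named were called. Markers of Purkinje cells, GABAergic interneurons and meningeal cells fell beside these lists in MB, and astroglial and meningeal markers rose beside them at P1, as given above; their part in the list counts was not tested.

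**Figure D5:**
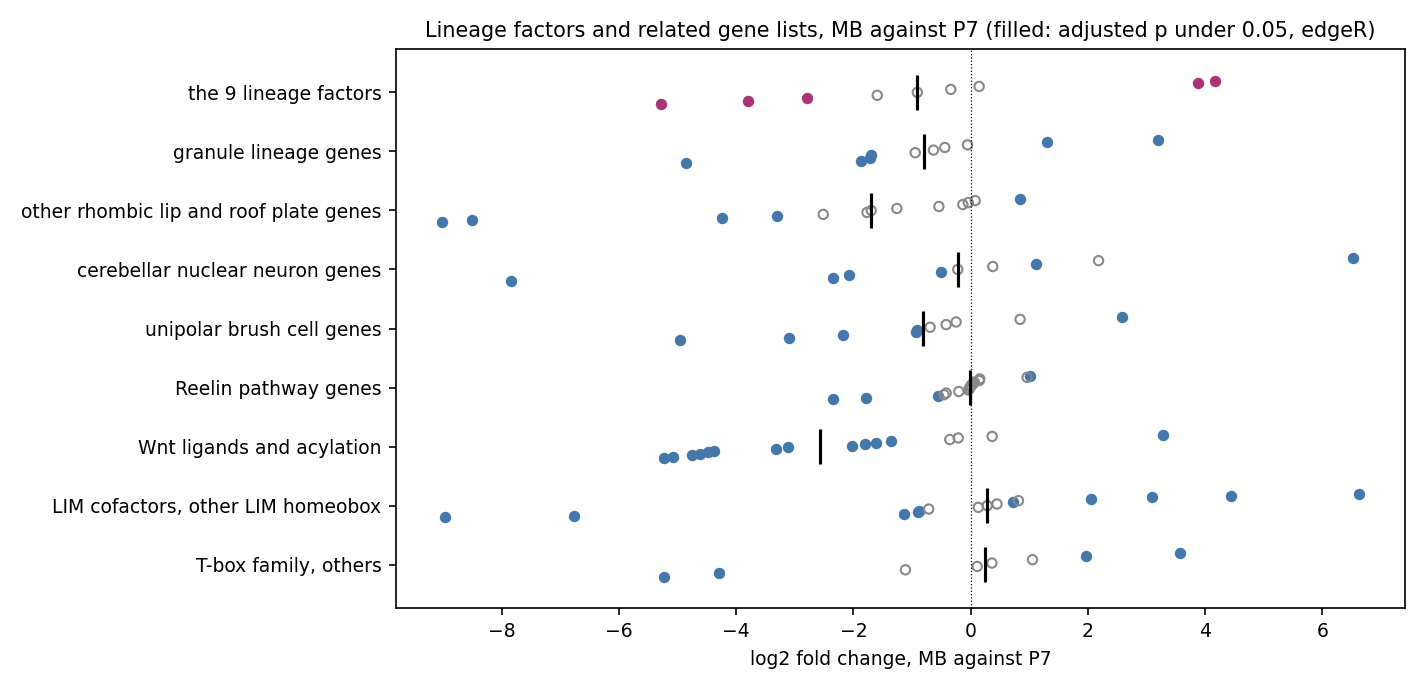
Log2 fold change (horizontal axis) of the 9 genes, in the top row, and of every tested gene in 8 related lists for MB against P7, with filled points for called genes and a bar at the list median. The Wnt ligand row has the lowest median, at -2.57, while the Reelin pathway row is centred near 0.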

How the data were processed

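Poly(A) RNA libraries were prepared with TruSeq v2 and sequenced on an Illumina HiSeq instrument, per the labels' protocols. The authors deposited raw read counts per gene, per transcription start site model and per transcript. The submitters' processing notes name Trimmomatic, TopHat, StringTie, HTSeq and mm9, and versions and strand setting are not given in the sources used here. The gene counts were the main table. The share of records assigned to genes was 39.5% to 55.4%, and the summary lines that name no gene were left out. Symbols were matched by Ensembl ID for 20358 of 21889 genes.

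Tests used edgeR 4.0.16 in R 4.3.3: filterByExpr (minimum count 10, minimum total 15), TMM scaling, and a quasi-likelihood fit of 5 group means to all 15 libraries (10 residual degrees of freedom). Adjusted p-values are Benjamini-Hochberg over 15259 genes, and a gene was called at an adjusted p under 0.05. The SE of a log2 change is its size divided by the square root of F. Log2 CPM for correlations used a prior count of 2. Reported intervals are 95%. The test script was tested on simulated data. Alternatives were DESeq2 1.42.0, upper-quartile scaling, other filters, groups fitted alone, a replicate block, the other deposited tables, 1 counting set, and each library left out. From each list, up to 3 called genes per direction with the largest changes and a mean of at least 1 CPM were eligible to be named. Some genes of the lists are not reported here. The 9 genes, the lists and the tests were chosen with earlier results of these data known.

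Same-numbered libraries were checked for pairing: over 30 pairs the correlation of deviations from group means ran from -0.312 to 0.332, so the numbers were not treated as pairing the samples.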

Additional observations from a re-analysis of the deposited data

How the results depend on the processing

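No called difference of a member turned its sign under any alternative run. Calls of Eomes, Lmx1a, Lhx2, Lhx9 and Olig3 in MB against P7, and of the 7 members in MB against E15.5, held in every alternative that tested them. Counts of members called moved as follows. For P7 against P1, the count higher (1) was 0 with the groups fitted alone, and 0 in the start site table. The count lower (2) was 4 with DESeq2, 1 with the groups alone and 1 in the start site table. For P14 against P7, the count higher (2) was 4 with the groups alone and 1 in the start site table. For P14 against P1, the count higher (0) was 1 with DESeq2, 2 with the groups alone and 1 within 1 counting set, and the count lower (1) was 3 with the groups alone and 3 within 1 counting set. The count higher in MB was 1 against P7 in the start site table, and against E15.5 it was 0 in that table and 2 within 1 counting set. The start site table held 6 members, without Lmx1a, Olig3 and Reln. With each library left out in turn, the counts higher ran from 0 to 1 for P1 against E15.5, 0 to 1 for P7 against P1, 0 to 2 for P14 against P7, 0 to 1 for P14 against P1 and 1 to 2 for MB against E15.5. The counts lower ran from 0 to 3 for P7 against P1, 0 to 1 for P14 against P1, 5 to 7 for P1 against E15.5 and 3 to 4 for MB against P7, and the count over 4 ages ran from 7 to 9.

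Signs turned only for differences that were not called. With 1 library left out, Eomes in P7 against P1 ran from -0.38 to 0.037 (without P1 replicate 1) and Tbr1 from -0.22 to 1.03 (below 0 without P1 replicate 1 or 2). Wls in MB against P7 ran from -0.20 (without MB replicate 3) to 0.46, and Lhx2 in MB against E15.5 from -0.014 (without E15.5 replicate 3) to 1.58. Wls in MB against E15.5 ran from -0.33 to 0.33, below 0 without E15.5 replicate 1 or 2 or MB replicate 2 or 3, and was -0.017 with upper-quartile scaling. The cause was not tested.

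With the replicate number as a block, the count higher for P7 against P1 was 0, as Olig3 lost its call (adjusted p = 0.0511 in edgeR), and Wls in MB against E15.5 was -0.044. In the check of pairing, 4 of 15 libraries correlated best with a library of their own number. Within 1 counting set E15.5 has 1 library, assumed to vary like the other groups. The contrasts with P7 and the test over 4 ages were not run there, since all P7 libraries are in the other set. Depth limits Lhx9, Lmx1a and Lmx1b in MB, which have 5, 13 and 7 counts over 3 libraries.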
